A study of Mus musculus with 36 samples.

Results

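Acute-phase serpins, the lipocalin Lcn2, the serum amyloid gene Saa3 and the orosomucoid gene Orm1 were followed in mouse embryonic fibroblasts (MEFs). The cells carried wild-type or point-mutated glucocorticoid receptor (GR), or lacked a functional receptor. The 9 genes were taken by name from the table of read counts, which lists 55487 genes: Serpina3n, Serpina3m, Serpina3g, Serpina3f, Serpina3i, Serpina3h, Lcn2, Saa3 and Orm1. Their change with dexamethasone (Dex), a synthetic glucocorticoid that activates GR, was compared between genotypes, as was their level under vehicle. The RNA-seq data held 36 libraries, 3 per genotype, run and treatment, of primary cultures treated for 5 h with vehicle or 1 μM Dex. By the study's description each culture came from another mouse, which was not tested here. The study describes 3 cultures per genotype, so vehicle and Dex libraries may have shared cultures. Whether libraries of the same number came from the same culture is not stated. They came from 2 runs. The first run held GRwt/wt, GRD/D, GRD+L/D+L and GRko/ko, and the second held GRL/L and a second set of GRwt/wt (replicates 4 to 6), so each mutant was compared with GRwt/wt of its own run.

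GRD/D carries a point mutation in the dimer interface of the DNA-binding domain and GRL/L a point mutation in the dimer interface of the ligand-binding domain. GRD+L/D+L carries both mutations, and GRko/ko lacks a functional receptor. The GRL and GRD+L alleles were made by genome editing of zygotes carrying the D allele, and the GRD+L line goes back to a single founder animal. All samples are labelled FVB/NJ. The study's methods describe the heterozygous animals behind GRko/ko as of a 129 background, so that for GRko/ko the genotype and the strain cannot be told apart. The cells were whole-embryo fibroblast cultures made after removal of head and organs and were grown in medium with fetal calf serum, itself a source of steroids.

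Acute-phase proteins are secreted mainly by the liver when cytokines such as IL-6 and IL-1 signal tissue damage or infection, and glucocorticoids are known to act together with these cytokines on many of the genes. Serpina3n, the mouse counterpart most often set beside human α1-antichymotrypsin, encodes a secreted inhibitor of serine proteases. It lies in a cluster of closely related genes that arose by duplication, and most of its members differ from each other in the reactive loop that meets the protease. Lcn2 encodes a lipocalin that binds bacterial siderophores, Saa3 a serum amyloid A protein made outside the liver, and Orm1 the plasma carrier α1-acid glycoprotein.

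The 6 serpins lie on chromosome 12 in a cluster of 14 Serpina3 genes (mm10, chr12:104112724-104414329, 301.6 kb). On that build Serpina3f spans chr12:104214544-104221129, Serpina3g chr12:104236245-104241939, Serpina3h chr12:104247905-104253669, Serpina3i chr12:104263122-104269372, Serpina3m chr12:104338486-104394257 and Serpina3n chr12:104406729-104414329. Serpina3h is annotated as a transcribed unprocessed pseudogene. Serpina3m shares its annotated start with Serpina3k and overlaps Serpina3k and Serpina3l-ps, so its reads cannot be fully told apart from those of Serpina3k. Lcn2 lies at chr2:32384633-32388252, Saa3 at chr7:46711998-46715700 and Orm1 at chr4:63344560-63348163.

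The sequences of the serpins bear on the counts, because only uniquely mapped reads were counted. Within the Serpina3n coding length, Serpina3i and Serpina3h were 93.7% and Serpina3f and Serpina3h 92.1% identical, each over 1223 aligned bases. Serpina3n and Serpina3m were 85.2% identical over 1254 bases, and the least alike pair, Serpina3g and Serpina3m, 80.9% over 1074. The 90 bases below are the most variable ungapped stretch within a single exon and are shown because they hold many of the bases by which reads of these genes can be told apart. They correspond to coding bases 660 to 749 of Serpina3n, in exon 3 of 5 (mm10, chr12:104411149-104411238, plus strand), and capitals mark the bases that differ from Serpina3n.
Serpina3n: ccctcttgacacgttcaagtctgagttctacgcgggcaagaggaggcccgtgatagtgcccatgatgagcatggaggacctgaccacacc
Serpina3g: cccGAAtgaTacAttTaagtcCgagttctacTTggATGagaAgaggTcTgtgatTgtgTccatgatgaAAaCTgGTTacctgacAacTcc
Serpina3f: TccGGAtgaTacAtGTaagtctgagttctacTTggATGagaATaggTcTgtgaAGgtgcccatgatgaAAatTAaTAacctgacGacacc
Serpina3i: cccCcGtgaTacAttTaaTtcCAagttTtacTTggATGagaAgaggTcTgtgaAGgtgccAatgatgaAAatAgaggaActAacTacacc
Serpina3h: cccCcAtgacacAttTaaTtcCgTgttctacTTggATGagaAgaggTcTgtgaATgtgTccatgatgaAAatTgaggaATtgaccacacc
Serpina3m: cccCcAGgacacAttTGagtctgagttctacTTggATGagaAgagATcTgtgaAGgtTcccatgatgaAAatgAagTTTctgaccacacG
In this stretch 45 of the 90 columns varied among the 6 genes. Serpina3g, Serpina3f and Serpina3i each differed from Serpina3n at 26 bases, Serpina3m at 25 and Serpina3h at 23.

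Across whole transcripts the share of sequence found in other genes was limited but not even. Of all 50-base stretches, 21.9% of Serpina3h, 19.1% of Serpina3m, 15.9% of Serpina3i, 15.5% of Serpina3g, 10.6% of Serpina3f and 6.9% of Serpina3n also occurred in the transcript of another gene. At 75 bases these shares fell to between 1.46% for Serpina3n and 11% for Serpina3h. For Serpina3m the partner was mostly Serpina3k, with 16% of the 50-base stretches. Lcn2 shared no such stretch, Saa3 shared 4.15%, and Orm1 shared 20.4% at 50 bases, all of it with Orm2. Reads from shared stretches map to more than 1 place and are lost from the count, so the levels of the more alike genes are understated. The read length is not given in the sources used here, the shares compare transcripts of the reference strain and not the whole genome, and they do not depend on the treatment.

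**Figure D1:**
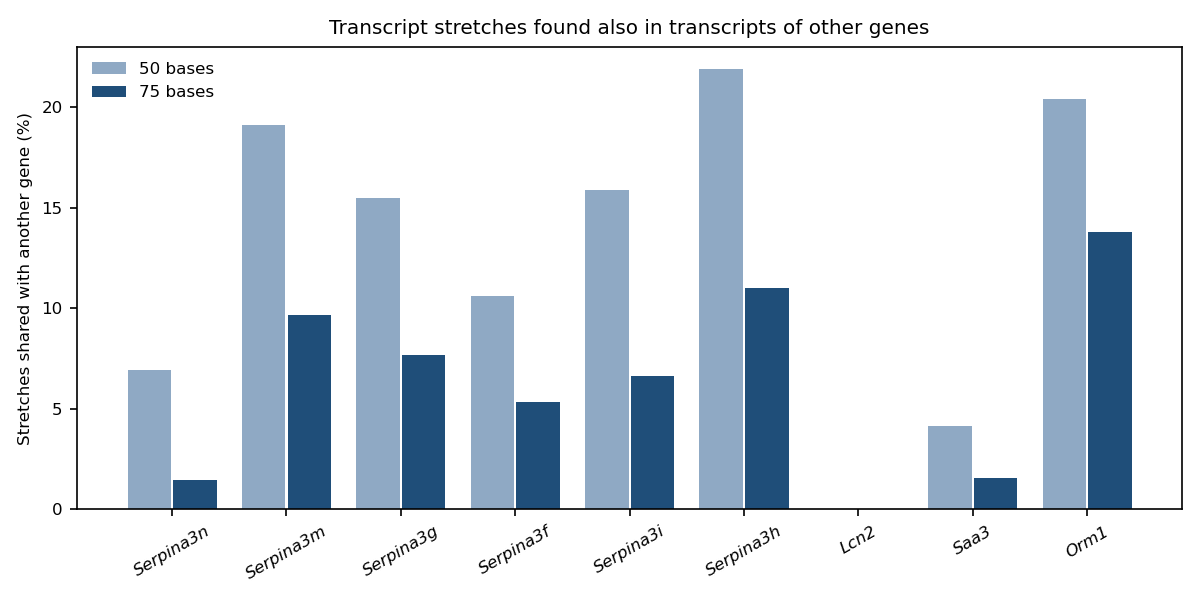
Share of each gene's transcript stretches that also occur in the transcript of another gene (y axis, percent), for stretches of 50 and of 75 bases; each bar is 1 of the 9 genes. Serpina3h (21.9%) and Orm1 (20.4%) stand highest at 50 bases, and Lcn2 is at 0 in both.

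The promoters available for the serpins were alike in part and differed in their motifs. The sequences of Serpina3n, Serpina3g and Serpina3i are shown because the 3 genes stand for the 3 patterns of Dex change described further on. They run from 250 bases before to 50 after the annotated start (RefSeq, GRCm38.p6, plus strand) at chr12:104406458-104406757, chr12:104235897-104236196 and chr12:104262872-104263171, and capitals mark motif matches.
Serpina3n: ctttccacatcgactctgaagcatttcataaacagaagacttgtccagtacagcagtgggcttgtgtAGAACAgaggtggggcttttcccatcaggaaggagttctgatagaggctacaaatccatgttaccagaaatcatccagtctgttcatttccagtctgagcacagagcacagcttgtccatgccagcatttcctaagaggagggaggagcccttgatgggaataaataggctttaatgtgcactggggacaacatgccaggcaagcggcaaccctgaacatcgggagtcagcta
Serpina3g: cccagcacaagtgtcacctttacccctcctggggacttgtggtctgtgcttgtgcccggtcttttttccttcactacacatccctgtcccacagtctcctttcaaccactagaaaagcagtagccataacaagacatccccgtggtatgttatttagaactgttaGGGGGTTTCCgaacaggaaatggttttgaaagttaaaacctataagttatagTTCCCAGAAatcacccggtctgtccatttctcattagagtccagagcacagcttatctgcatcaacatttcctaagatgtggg
Serpina3i: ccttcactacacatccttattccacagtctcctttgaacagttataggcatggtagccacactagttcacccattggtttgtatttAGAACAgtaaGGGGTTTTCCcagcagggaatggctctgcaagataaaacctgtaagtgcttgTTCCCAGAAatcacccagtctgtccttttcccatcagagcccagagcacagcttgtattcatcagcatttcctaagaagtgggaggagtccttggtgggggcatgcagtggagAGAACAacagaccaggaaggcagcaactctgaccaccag
Motifs were searched on both strands: TGTTCT, the better conserved hexamer of the GR response element, the STAT motif TTCNNNGAA, the C/EBP motif TTGCNNAA and the NF-kB consensus. Positions count from the start base as 0. The Serpina3n promoter held the GR hexamer at −183 to −178 and no match to the other motifs. The Serpina3g promoter held no GR hexamer, a STAT match at −33 to −25 and an NF-kB match at −85 to −76. The Serpina3i promoter held GR hexamers at −164 to −159 and at 11 to 16, a STAT match at −102 to −94 and an NF-kB match at −154 to −145. The Serpina3f promoter, with 2 annotated starts, held GR hexamer, STAT and C/EBP matches, and the promoters of Lcn2 and Saa3 each held a C/EBP match alone. Of 32851 mouse promoters of the same length, 19.0% held the GR hexamer, 8.3% the STAT, 10.8% the C/EBP and 8.46% the NF-kB motif. These are matches of letters only, and binding was not measured here. Serpina3h, Serpina3m and Orm1 had no promoter in the table used.

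Library totals ranged from 15280166 to 28662608 counts, and 15489 genes passed the filter on low counts and were tested. Nr3c1, which encodes GR, stood at 67.2 to 74.3 CPM (counts scaled to the TMM-adjusted library size) in vehicle-treated GRwt/wt of the first run and at 15.9 to 18 CPM in GRko/ko, so that the transcript was reduced and not absent. Within each of the 6 sets of genotype and run, all libraries were of the same sex. Whether the sets compared with each other were of the same sex is not given here. The part of sex in the differences between genotypes was not tested. Markers of fibroblasts were abundant in all libraries (summed 19660 to 31920 CPM), while those of hepatocytes (0.201 to 2.49 CPM) and neutrophils (0.13 to 3.38 CPM, 0 of 8 genes tested) were near 0. Epithelial markers summed to 4.51 to 52.9 CPM. The 14 macrophage markers were all detected, with a summed level that differed widely between genotypes: 35.7 to 44.8 CPM in GRD+L/D+L, 225 to 393 CPM in GRwt/wt of the first run, 807 to 858 CPM in GRD/D, 3404 to 3760 CPM in GRko/ko, 522 to 549 CPM in GRwt/wt of the second run and 947 to 1126 CPM in GRL/L, all under vehicle. In such bulk libraries fewer cells of a type and less RNA per cell cannot be told apart.

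Of the 9 genes, 8 passed the filter and Orm1 did not. Levels between genes are given as CPM per kb of exonic length. In vehicle-treated GRwt/wt of the first run Serpina3h was highest with 115.9 ± 3.75 CPM per kb (SD, n = 3), followed by Serpina3i with 33.1 ± 1.32 and Serpina3n with 19.97 ± 0.69. Serpina3f followed with 1.88 ± 0.18, and Serpina3m (0.729 ± 0.231), Serpina3g (0.703 ± 0.156) and Saa3 (0.526 ± 0.175) lay within each other's spread. Orm1 (0.0558 ± 0.0483) and Lcn2 (0.0412 ± 0.0378) were at the limit of detection. The order in the second run was different. Serpina3h (106 ± 8.49) and Serpina3n (94.4 ± 15.9) were then next to each other and within their spread, Serpina3i had 28.4 ± 2.28, and Saa3 (9.28 ± 9.42), Serpina3f (6.63 ± 1.53), Serpina3g (4.94 ± 0.654) and Serpina3m (3.59 ± 0.541) followed.

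**Figure D2:**
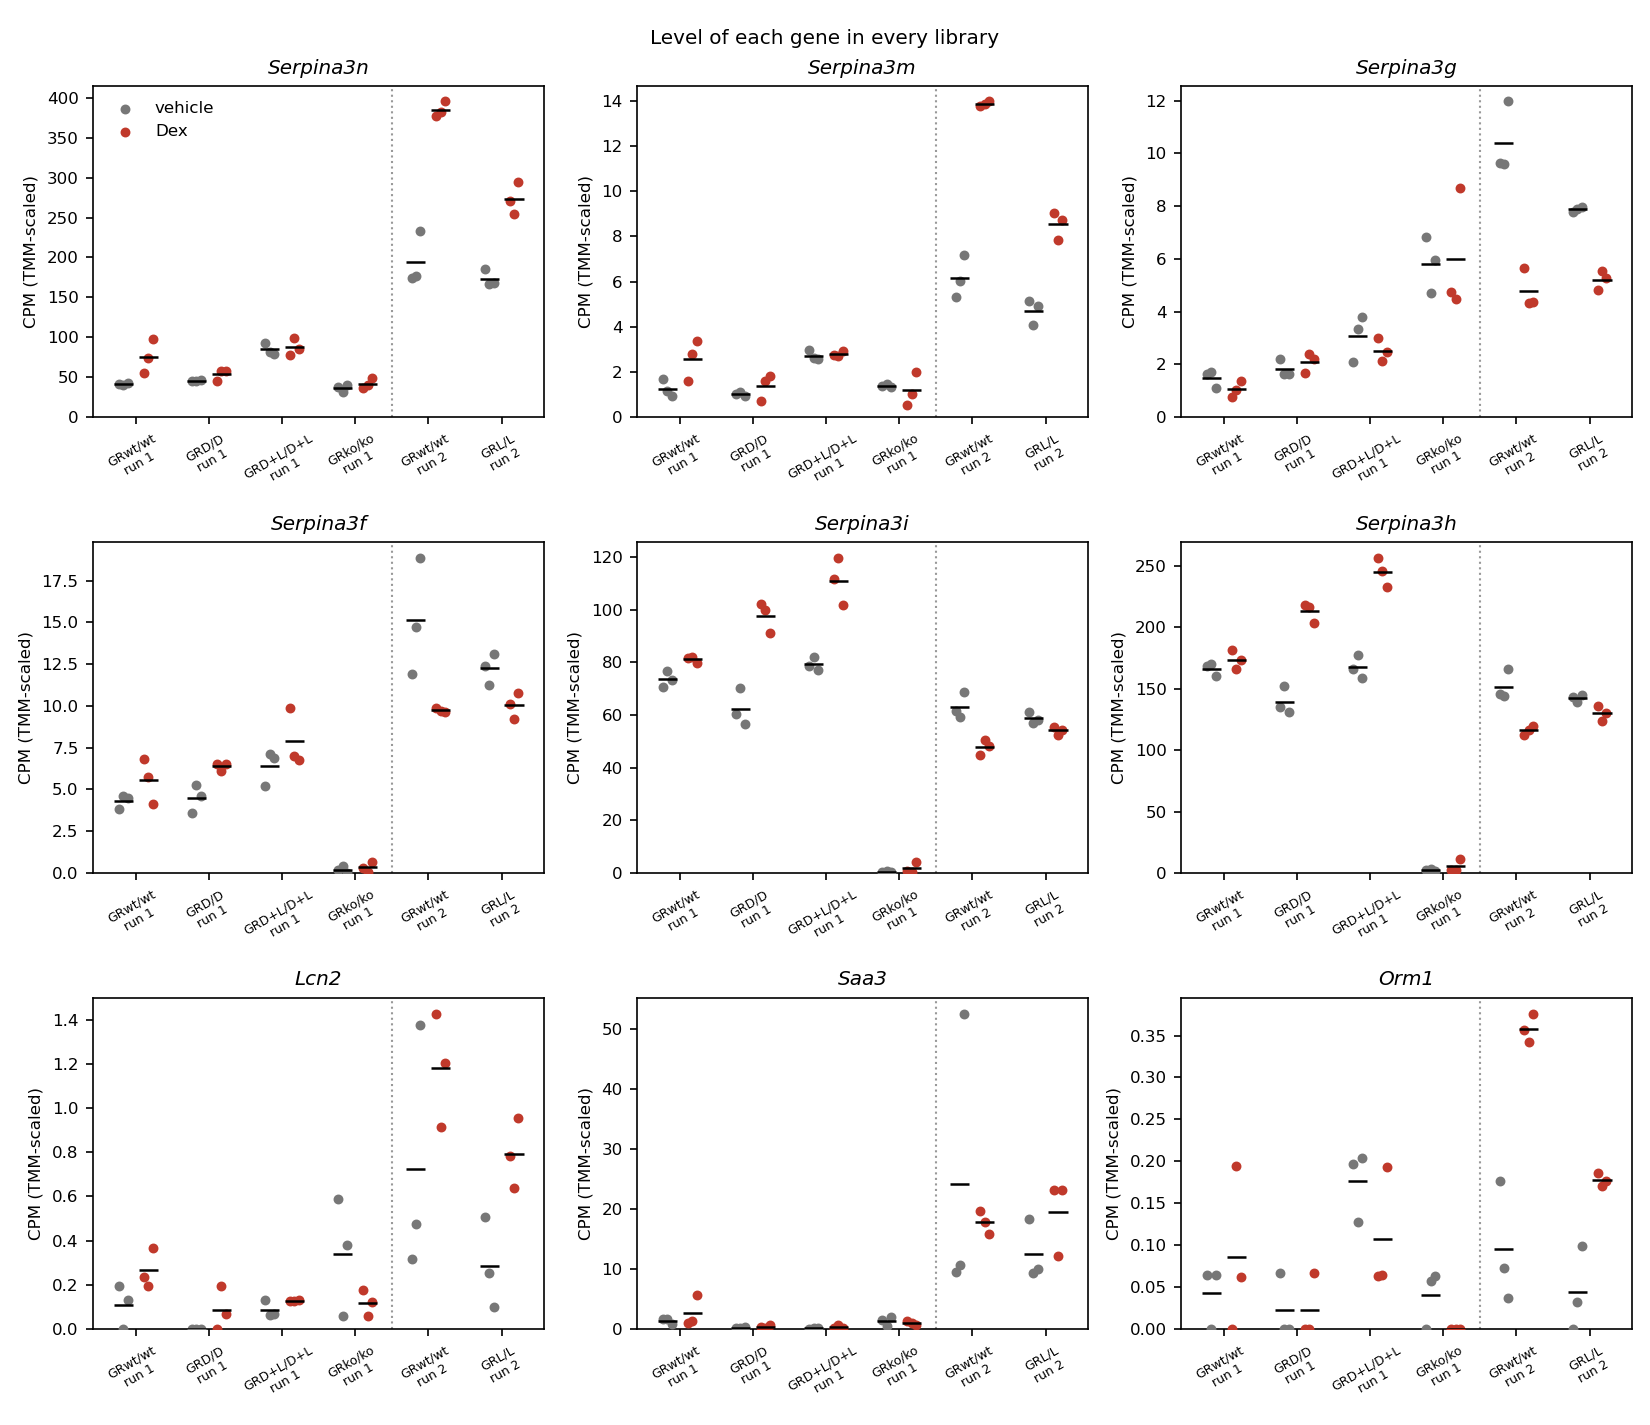
Level of each of the 9 genes (y axis, CPM, linear from 0) by genotype and run, with vehicle in grey and Dex in red; each point is 1 of the 36 libraries and black lines are group means (n = 3). Serpina3n with Dex lies above vehicle in GRwt/wt of both runs and in GRL/L, and Serpina3f, Serpina3i and Serpina3h lie far lower in GRko/ko than in the other genotypes.

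Serpina3n, the most studied of the serpins, rose with Dex in GRwt/wt and in GRL/L. In GRwt/wt of the first run its level was 41.9, 39.6 and 42.2 CPM with vehicle and 54.7, 73.8 and 97.1 CPM with Dex. In the second run it was 175, 177 and 233 CPM with vehicle and 377, 383 and 397 CPM with Dex. All Dex libraries lay above all vehicle libraries in both runs, with a wide spread of the Dex libraries in the first. The rise was 1.82-fold in the first run (log2 fold change 0.87, SE 0.16, adjusted p = 0.000278) and 1.98-fold in the second (0.99, SE 0.13, adjusted p = 1.86e-06), and the rises of both runs differed by 0.12 on the log2 scale (adjusted p = 0.837). In GRL/L the level was 186, 166 and 168 CPM with vehicle and 271, 255 and 294 CPM with Dex. The groups did not overlap, and the rise was 1.58-fold (0.66, SE 0.13, adjusted p = 0.000661). The GRL/L response differed from that of GRwt/wt of its run by −0.33 (adjusted p = 0.524, 95% confidence interval −0.70 to 0.04), an interval that holds both no difference and a clearly weaker response.

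With the D mutation no change of Serpina3n with Dex was called. GRD/D had 45.5, 45.7 and 45.9 CPM with vehicle and 45.7, 57.1 and 57.5 CPM with Dex (log2 fold change 0.23, adjusted p = 0.42). GRD+L/D+L had 93.3, 81.8 and 78.6 CPM with vehicle and 77.9, 98.5 and 85.2 CPM with Dex (0.04, adjusted p = 0.959), and the groups overlapped. GRko/ko had 37.5, 31.3 and 40.2 CPM with vehicle and 36.3, 39.7 and 49.3 CPM with Dex (0.20, adjusted p = 0.954). The difference to the GRwt/wt response was called in GRD+L/D+L (−0.82, SE 0.22, adjusted p = 0.0334, 95% confidence interval −1.25 to −0.39). It was not called in GRD/D (−0.64, adjusted p = 0.171, interval −1.08 to −0.19) or GRko/ko (−0.66, adjusted p = 0.0825), nor was that between GRD+L/D+L and GRD/D (−0.18, adjusted p = 0.819). The call in GRD+L/D+L held in 3 of 12 fits that each left out 1 library, those without GRwt/wt Dex replicate 1, GRD+L/D+L Dex replicate 2 or GRD+L/D+L vehicle replicate 3. In the other 9 the adjusted p was 0.0556 to 0.142, and without GRwt/wt Dex replicate 3, the highest library, the value was −0.60 (adjusted p = 0.142). Without GRwt/wt Dex replicate 1, the lowest, the differences in GRD/D (−0.82, adjusted p = 0.0188) and GRko/ko (−0.84, adjusted p = 0.00891) were called too, and so was that in GRko/ko without its Dex replicate 3 (−0.80, adjusted p = 0.0467).

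Serpina3m, which encodes a further secreted serpin, moved together with Serpina3n at a much lower count. In GRwt/wt of the second run it had 151, 165 and 193 counts with vehicle and 348, 365 and 372 with Dex. In the first run it had 26, 17 and 14 counts with vehicle and 27, 43 and 55 with Dex. The libraries separated in the second run and overlapped on the CPM scale in the first. The rise had a log2 fold change of 1.17 in the second run (SE 0.14, adjusted p = 6e-09) and of 1.03 in the first (SE 0.29, adjusted p = 0.0109). The call of the first run was lost without Dex replicate 3 (0.79, adjusted p = 0.119) and without vehicle replicate 3 (0.84, adjusted p = 0.0825). In GRL/L Serpina3m had 152, 129 and 149 counts with vehicle and 243, 184 and 247 with Dex, a rise of 0.86 (SE 0.15, adjusted p = 2.06e-05) with no overlap on the CPM scale. No change was called in GRD/D (0.44, adjusted p = 0.468), GRD+L/D+L (0.03, adjusted p = 0.99) or GRko/ko (−0.24, adjusted p = 0.983). The differences to the GRwt/wt response were −1.0 in GRD+L/D+L (adjusted p = 0.201), −0.60 in GRD/D (adjusted p = 0.737), −1.28 in GRko/ko (adjusted p = 0.0633) and −0.31 in GRL/L (adjusted p = 0.588), none of them called. The difference in GRD+L/D+L was called without GRwt/wt Dex replicate 1 (−1.27, adjusted p = 0.0485). That in GRko/ko was called without GRwt/wt Dex replicate 1 (−1.53, adjusted p = 0.0156), without GRwt/wt vehicle replicate 1 (−1.55, adjusted p = 0.0377) and without GRko/ko Dex replicate 3 (−1.87, adjusted p = 0.00406).

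Serpina3g, an inhibitor of cysteine cathepsins expressed in activated blood cells, moved in the opposite direction in the second run. GRwt/wt had 9.63, 9.59 and 12.0 CPM with vehicle and 5.66, 4.33 and 4.36 CPM with Dex. GRL/L had 7.77, 7.91 and 7.95 CPM with vehicle and 4.81, 5.54 and 5.27 CPM with Dex. In both genotypes all Dex libraries lay below all vehicle libraries. The fall was −1.12 on the log2 scale in GRwt/wt (SE 0.16, adjusted p = 2.93e-07) and −0.60 in GRL/L (SE 0.16, adjusted p = 0.00455). In GRwt/wt of the first run the counts were low, with 25, 25 and 17 for vehicle and 13, 16 and 22 for Dex, and the change of −0.49 (SE 0.36) was not called (adjusted p = 0.451). No change was called in GRD/D (0.20, adjusted p = 0.729), GRD+L/D+L (−0.29, adjusted p = 0.733) or GRko/ko (0.04, adjusted p = 0.998).

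Serpina3f, a close relative of Serpina3g, gave different responses in GRwt/wt of the 2 runs. In the second run it had 11.9, 14.7 and 18.9 CPM with vehicle and 9.86, 9.69 and 9.63 CPM with Dex, a fall of −0.64 (SE 0.15, adjusted p = 0.00109). In the first run it had 3.83, 4.59 and 4.48 CPM with vehicle and 6.80, 5.77 and 4.11 CPM with Dex (0.37, SE 0.23, adjusted p = 0.345). The groups were apart in the second run and overlapped in the first. The difference between the runs was −1.01 (SE 0.27, adjusted p = 0.0179), and it was not called without GRwt/wt Dex replicate 1 (adjusted p = 0.105), Dex replicate 2 (adjusted p = 0.0519) or vehicle replicate 1 (adjusted p = 0.0689) of the first run. Changes in GRL/L (−0.28, adjusted p = 0.224), GRD/D (0.49, adjusted p = 0.162) and GRD+L/D+L (0.31, adjusted p = 0.577) were not called. The Dex libraries lay below the vehicle libraries in GRL/L and above them in GRD/D.

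Serpina3i and the pseudogene Serpina3h formed the third pattern, with a rise in the genotypes that carry the D mutation. Serpina3i in GRD/D had 60.3, 70.3 and 56.7 CPM with vehicle and 102, 100 and 91.2 CPM with Dex. Serpina3h in GRD/D had 135, 152 and 131 CPM with vehicle and 218, 217 and 204 CPM with Dex. The groups did not overlap, and the rise was 1.56-fold for Serpina3i (log2 fold change 0.65, SE 0.13, adjusted p = 0.00106) and 1.53-fold for Serpina3h (0.61, SE 0.15, adjusted p = 0.008). In GRD+L/D+L Serpina3i had 78.5, 82.2 and 77.0 CPM with vehicle and 112, 120 and 102 CPM with Dex. Serpina3h there had 166, 177 and 159 CPM with vehicle and 257, 246 and 233 CPM with Dex. Again no libraries overlapped, and the rise was 1.40-fold for Serpina3i (0.49, SE 0.13, adjusted p = 0.0197) and 1.46-fold for Serpina3h (0.55, SE 0.15, adjusted p = 0.0292).

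In GRwt/wt no rise of these 2 genes was called. In the first run Serpina3i had 70.9, 76.7 and 73.5 CPM with vehicle and 81.9, 82.1 and 79.7 CPM with Dex (0.14, adjusted p = 0.577), a small shift without overlap. Serpina3h had 168, 170 and 160 CPM with vehicle and 181, 166 and 173 CPM with Dex (0.06, adjusted p = 0.865). In the second run Serpina3i fell from 61.5, 59.3 and 68.9 CPM to 44.7, 50.4 and 48.2 CPM (−0.40, SE 0.13, adjusted p = 0.016). This fall was not called without GRwt/wt Dex replicate 4 (adjusted p = 0.0592) or vehicle replicate 6 (adjusted p = 0.0802), nor with DESeq2 (adjusted p = 0.0983) or the run term, which takes GRwt/wt of both runs together (−0.14, adjusted p = 0.361). Serpina3h went from 145, 144 and 166 CPM to 112, 117 and 120 CPM, also with no overlap, and was not called (−0.38, adjusted p = 0.0535). In GRL/L neither Serpina3i (−0.12, adjusted p = 0.615) nor Serpina3h (−0.14, adjusted p = 0.62) was called. For both genes all Dex libraries of GRL/L lay below all its vehicle libraries.

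The difference to the GRwt/wt response was not called for these 2 genes in the fit over all libraries. It was 0.50 for Serpina3i (adjusted p = 0.189) and 0.55 for Serpina3h (adjusted p = 0.246) in GRD/D, and 0.35 (adjusted p = 0.476) and 0.49 (adjusted p = 0.333) in GRD+L/D+L. That fit includes the GRko/ko libraries, in which both genes are near 0 and vary widely in relative terms. Whether this spread is the cause of the missing calls was not tested. In an alternative chosen after seeing the data that left out GRko/ko, the differences in GRD/D were 0.51 (adjusted p = 0.000472) and 0.55 (adjusted p = 8.78e-06), and those in GRD+L/D+L 0.34 (adjusted p = 0.0301) and 0.48 (adjusted p = 7.36e-05). In that fit the Serpina3h fall in GRwt/wt of the second run was called as well (−0.38, adjusted p = 1.17e-06), as it was with each run fitted on its own (adjusted p = 3.29e-05). With the run term all 4 differences were called too (adjusted p = 0.00829 to 0.037), against GRwt/wt of both runs. With the added fold threshold all 4 of these Dex calls were lost, since the fold changes are below 1 on the log2 scale. Over the 13 other alternatives, the Dex call in GRD/D held in 13 for Serpina3i and in 12 for Serpina3h, where it was lost with DESeq2 (adjusted p = 0.124). That in GRD+L/D+L held in 5 for Serpina3i and in 2 for Serpina3h. Leaving out any of the 6 libraries ended the Serpina3h call there (adjusted p = 0.0577 to 0.13), and leaving out any but Dex replicate 3 that of Serpina3i (adjusted p = 0.0514 to 0.119), with values of 0.43 to 0.59.

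**Figure D3:**
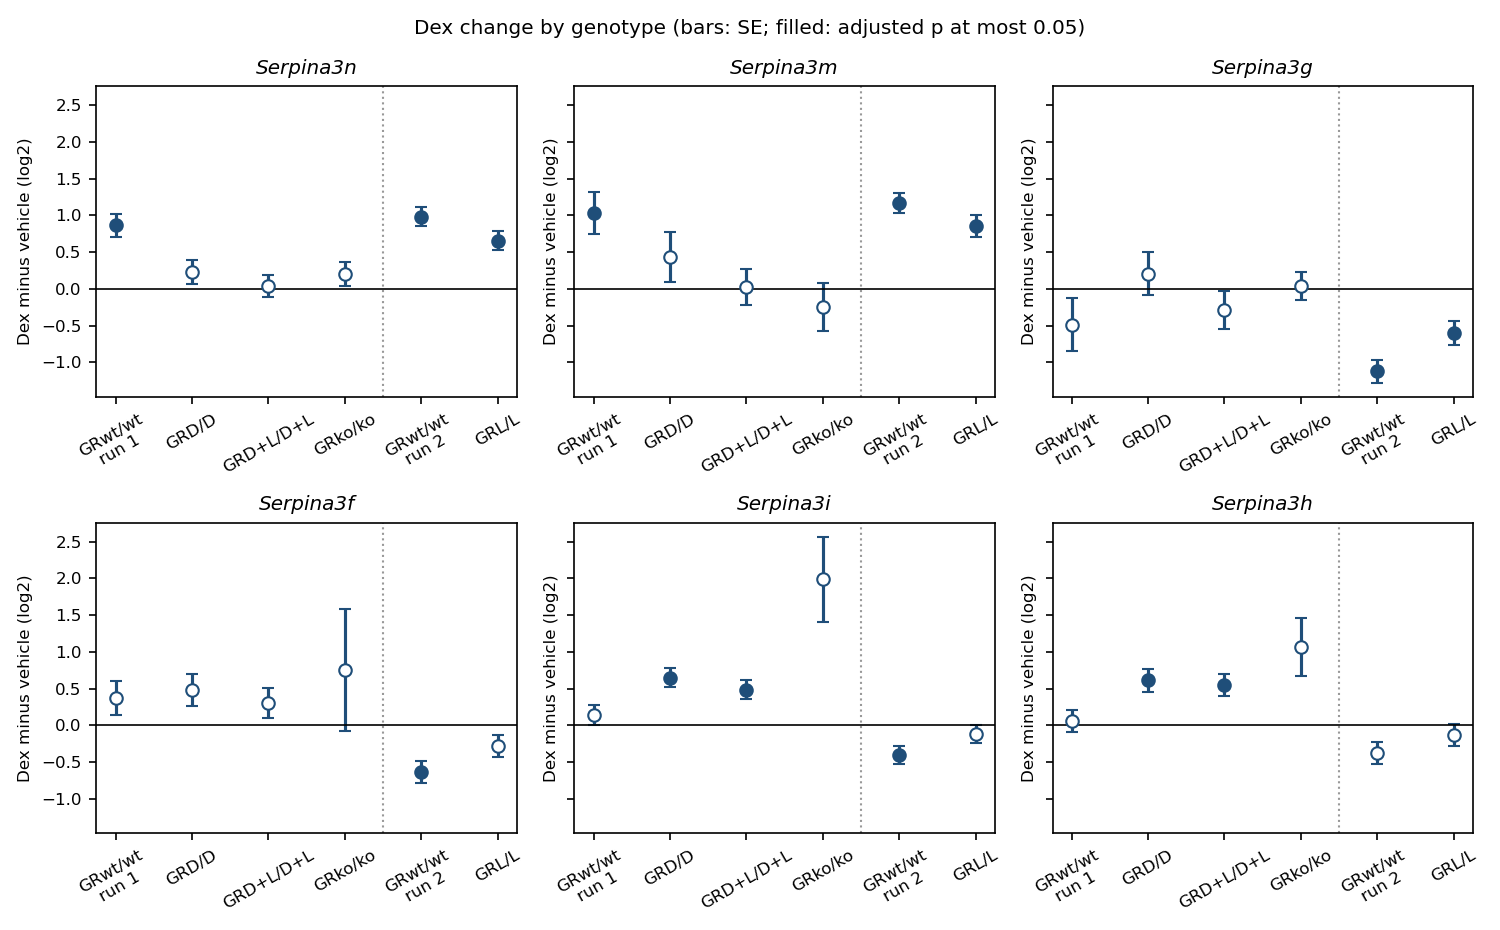
Change with Dex (log2 fold change, y axis) of the 6 serpins in each genotype and run; points are fitted values, bars are standard errors, and filled points have an adjusted p of at most 0.05. Serpina3n is at 0.87 and 0.99 in GRwt/wt and at 0.04 in GRD+L/D+L, while Serpina3i and Serpina3h are highest among the genotypes other than GRko/ko in GRD/D (0.65 and 0.61).

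Lcn2 was expressed at the limit of detection. In GRL/L it had 15, 8 and 3 counts with vehicle and 21, 15 and 27 with Dex. In GRwt/wt of the second run it had 9, 13 and 37 counts with vehicle and 36, 24 and 32 with Dex. In the first run all counts lay between 0 and 10, and GRD/D had 0 counts in all vehicle libraries, which allows up to 3 counts in each. The rise in GRL/L was called (log2 fold change 1.47, SE 0.47, adjusted p = 0.0215), but not without Dex replicate 3 (adjusted p = 0.102), vehicle replicate 2 (adjusted p = 0.0819) or vehicle replicate 3 (adjusted p = 0.144), nor with DESeq2 (adjusted p = 0.0557) or each run fitted on its own (adjusted p = 0.0653). In GRwt/wt of the second run the change of 0.71 was not called (adjusted p = 0.152). Without vehicle replicate 6, the library with 37 counts, it was 1.56 (adjusted p = 0.00366).

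Saa3 varied more between libraries of a group than with Dex. In GRwt/wt of the second run it had 267, 291 and 1414 counts with vehicle and 495, 469 and 420 with Dex, the high value again in vehicle replicate 6. In GRL/L it had 542, 294 and 304 counts with vehicle and 623, 287 and 657 with Dex. In GRwt/wt of the first run it had 25, 24 and 13 counts with vehicle and 18, 20 and 92 with Dex, the high value in Dex replicate 3. Dex and vehicle libraries overlapped in all genotypes, and no change was called (GRwt/wt 0.97, adjusted p = 0.66 and −0.44, adjusted p = 0.465, GRL/L 0.65, adjusted p = 0.362). The sign in GRwt/wt rested on single libraries. Without vehicle replicate 6 the second run gave 0.83 (adjusted p = 0.0532), and without Dex replicate 3 the first gave −0.21. The library with 1414 counts had 19 counts of S100a8 and 67 of S100a9, against 0 to 4 counts in the other 2 vehicle libraries of its group. These are 2 of the 8 genes of the neutrophil list, and the rest of that list had at most 4 counts in the second run. The summed macrophage level of this library was 522 CPM against 544 and 549. Its epithelial markers summed to 52.9 CPM against 7.2 and 8.02 CPM. The library with 92 counts had a summed macrophage level of 385.5 CPM against 235 and 258 CPM, while vehicle replicate 2 of the same genotype and run had 393 CPM and 24 counts of Saa3. The part of other cell types in the Saa3 values was not tested.

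Orm1, below the filter, had 5, 2 and 1 counts with vehicle and 9, 9 and 10 with Dex in GRwt/wt of the second run. GRL/L had 0, 1 and 3 counts with vehicle and 5, 4 and 5 with Dex. In both the Dex libraries lay above the vehicle libraries, and in the first run all libraries had between 0 and 3 counts. No test was made.

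Read against all genes, the counts of changed members were as follows. With Dex, 2 of 8 tested members changed in GRwt/wt of the first run, both higher, where 13.8% of all tested genes changed (7.68% higher and 6.16% lower). In the second run 5 changed, 2 higher and 3 lower, against 31.5% of all genes (14.8% higher and 16.7% lower). In GRL/L 4 changed, 3 higher and 1 lower, against 19.0% (8.74% higher and 10.3% lower). In GRD/D 2 rose, against 11.8% of all genes changed, and in GRD+L/D+L 2 rose, against 5.02%. In GRko/ko 0 of 8 members and 0% of all genes changed by edgeR, where 835 genes had an unadjusted p under 0.05 and DESeq2 called 1 gene, the member Serpina3i. The response differed from GRwt/wt for 1 member in GRD+L/D+L (background 3.20%) and for 0 in GRD/D (3.28%), GRko/ko (8.33%) and GRL/L (1.85%), and 0 members differed between GRD+L/D+L and GRD/D (0.0646%). With so few members, these counts describe them and no more.

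Under vehicle, 3 members were higher in GRD+L/D+L than in GRwt/wt of the same run. Serpina3n stood at 93.3, 81.8 and 78.6 CPM in GRD+L/D+L against 41.9, 39.6 and 42.2 CPM in GRwt/wt, a 2.05-fold higher level (log2 difference 1.04, SE 0.16, adjusted p = 1.34e-05). Serpina3m had 45, 41 and 38 counts against 26, 17 and 14 (1.11, SE 0.29, adjusted p = 0.00272), and Serpina3g 32, 52 and 56 against 25, 25 and 17 (1.06, SE 0.29, adjusted p = 0.00451). The libraries of both genotypes did not overlap for any of the 3. These 3 calls held under each alternative, the fold threshold included, and with each library left out, and 29.6% of all genes differed in this comparison (13.8% higher and 15.8% lower). The vehicle level of Serpina3n in GRD+L/D+L thus lay in the range of the Dex-treated GRwt/wt libraries of the same run, 54.7 to 97.1 CPM. Saa3 was low in GRD+L/D+L, with 1, 2 and 2 counts against 25, 24 and 13, and was not called (adjusted p = 0.255), but was with each run fitted on its own in edgeR (−3.54, adjusted p = 0.0127) and with DESeq2 (−3.64, adjusted p = 0.000659). The summed macrophage level in the same libraries was 35.7 to 44.8 CPM against 225 to 393 CPM, and 13 of 14 macrophage markers were lower. Its part in the Saa3 and serpin levels was not tested. Serpina3f was not called (0.57, adjusted p = 0.0566), but was with DESeq2 (adjusted p = 0.0135), without the filter (adjusted p = 0.00716), with each run fitted on its own (adjusted p = 0.0499), without GRko/ko (adjusted p = 0.0358) and without GRD+L/D+L vehicle replicate 1 (0.70, adjusted p = 0.035).

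In GRko/ko under vehicle, neighbouring serpins of the cluster went apart. Serpina3h had 40, 64 and 28 counts against 2592, 2487 and 2469 in GRwt/wt (log2 difference −5.99, SE 0.25, adjusted p = 6.06e-17). Serpina3i had 5, 13 and 6 counts against 1092, 1120 and 1133 (−7.26, SE 0.28, adjusted p = 5.44e-18), and Serpina3f 3, 7 and 0 against 59, 67 and 69 (−4.40, SE 0.46, adjusted p = 1.16e-09). Serpina3h in GRko/ko was thus at 1.07% to 2.18% of the GRwt/wt mean. Serpina3e-ps, a pseudogene upstream of Serpina3f and no member of the 9, was lower as well, with 0.176, 0.34 and 0.379 CPM against 11.6, 12.2 and 12.2 CPM (log2 difference −5.31, adjusted p = 1.08e-22). Serpina3g, which lies between Serpina3f and Serpina3h, was higher, with 116, 83 and 94 counts against 25, 25 and 17 (1.97, SE 0.25, adjusted p = 2.02e-08). Serpina3n (−0.19, adjusted p = 0.405) and Serpina3m (0.14, adjusted p = 0.76) at the other end of the cluster were not called. Lcn2 was called higher only in the fit without GRko/ko vehicle replicate 2 (2.08, adjusted p = 0.0427).

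So 4 of 8 members differed in GRko/ko, 1 higher and 3 lower, where 45.5% of all genes differed (24.3% higher and 21.2% lower). With Dex the 3 low serpins stayed low, and GRko/ko Dex replicate 3 stood apart with 190 counts of Serpina3h and 72 of Serpina3i, against 46 and 40, and 15 and 9, in the other 2. The Dex changes of 1.07 for Serpina3h (adjusted p = 0.819) and 1.99 for Serpina3i (adjusted p = 0.737) were not called by edgeR. DESeq2 called Serpina3i (2.01, adjusted p = 0.00172), the 1 gene that it called with Dex in GRko/ko. The Serpina3i difference to GRwt/wt (1.85, adjusted p = 0.057) was called by DESeq2 (adjusted p = 0.000291), with the replicate block (adjusted p = 0.00974) and with the run term (adjusted p = 0.0276). By edgeR the differences to GRwt/wt were called for both genes without GRko/ko Dex replicate 1 (1.35, adjusted p = 0.0319 and 2.21, adjusted p = 0.0136) or Dex replicate 2 (1.36, adjusted p = 0.0274 and 2.28, adjusted p = 0.00397), fits in which replicate 3 weighs more. The summed macrophage level in vehicle-treated GRko/ko was 3404 to 3760 CPM, and all 14 markers were higher than in GRwt/wt. The part of macrophages in the Serpina3g level, that of the strain, and that of sequence differences between strains in the uniquely mapped reads were not tested.

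**Figure D4:**
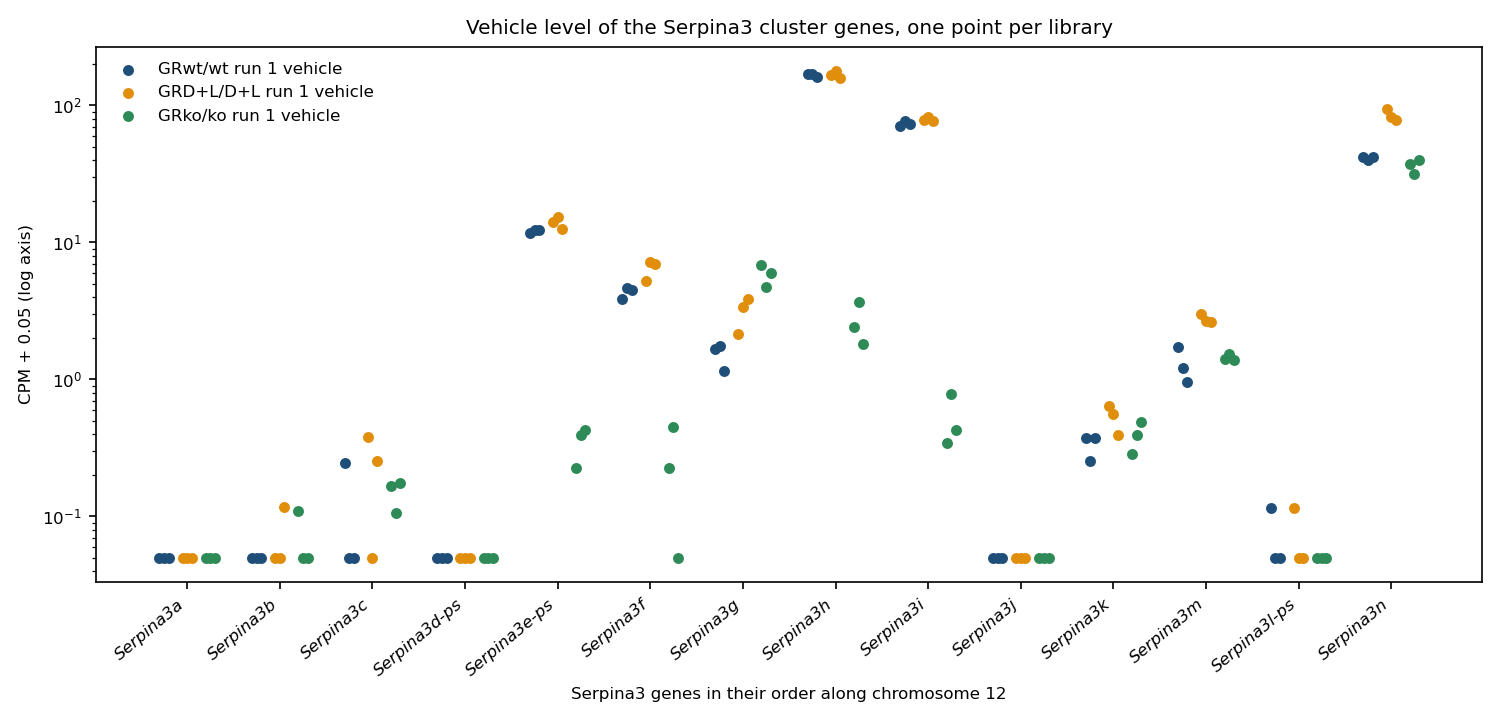
Level under vehicle (log axis, CPM plus 0.05) of the 14 Serpina3 genes in their order along chromosome 12, for GRwt/wt, GRD+L/D+L and GRko/ko of the first run; each point is 1 library. Serpina3e-ps, Serpina3f, Serpina3h and Serpina3i are lower in GRko/ko, Serpina3g is higher in GRko/ko, and Serpina3n and Serpina3m are higher in GRD+L/D+L.

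In the other mutants the vehicle levels were nearer to GRwt/wt, and 0 of 8 members were called in GRD/D (9.37% of all genes) and in GRL/L (11.3%). Serpina3n differed by 0.15 in GRD/D (adjusted p = 0.673) and by −0.17 in GRL/L (adjusted p = 0.518). Larger values were −1.31 for Lcn2 (adjusted p = 0.0674) and −0.94 for Saa3 (adjusted p = 0.184), both in GRL/L. Without GRwt/wt vehicle replicate 4 both were called (−1.67, adjusted p = 0.0167 and −1.33, adjusted p = 0.0403), as was Serpina3f (−0.46, adjusted p = 0.0385), and Lcn2 also without GRL/L vehicle replicate 1 (−1.97, adjusted p = 0.0229). In GRD/D Saa3 had 3, 3 and 5 counts against 25, 24 and 13 (adjusted p = 0.462), and DESeq2 called it lower (adjusted p = 0.0111).

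The GRwt/wt cultures of the 2 runs differed in more genes than any mutant did from GRwt/wt of its run. Under vehicle 6 of 8 members were higher in the second run, where 72.3% of all genes differed. Serpina3g was 7.02-fold higher (log2 difference 2.81, adjusted p = 3.79e-14), Serpina3m 4.89-fold (2.29, adjusted p = 1.98e-11), Serpina3n 4.72-fold (2.24, adjusted p = 1.05e-12) and Serpina3f 3.53-fold (1.82, adjusted p = 3.44e-10). Saa3 was higher by 4.13 on the log2 scale (adjusted p = 1.21e-05), or by 2.87 without vehicle replicate 6 (adjusted p = 2.22e-05), and Lcn2 by 2.63 (adjusted p = 0.00122). The response to Dex differed between the runs for 1 member, Serpina3f, against 7.00% of all genes. Run and culture cannot be told apart here.

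Across the 12 group means, some members followed each other closely. Pearson's r of log2 CPM, given as a description over groups that share runs and genotypes, was 0.999 for Serpina3i with Serpina3h and 0.985 for Serpina3n with Serpina3m, while it was 0.485 for Serpina3n with Serpina3g. Besides Serpina3m, the genes most like Serpina3n were 1110038B12Rik (0.983), Stc2 (0.979), Gstm5 (0.977) and Leprot (0.973). After Serpina3n, Serpina3m was most like Sh3d21 (0.962), Cc2d1b (0.959), Epb41l4aos (0.959) and Gm6969 (0.957). Serpina3e-ps, Gm10263, BC023719 and Gm5898 followed Serpina3i with r of 0.993 to 0.995. Serpina3f had r of 0.933 with Serpina3i. The Serpina3i means in GRko/ko were 0.47 CPM with vehicle and 1.91 CPM with Dex, against 47.8 to 111 CPM in the other groups. Between the runs, 6 of 8 members were higher in vehicle-treated GRwt/wt of the second, among them Serpina3n (4.72-fold), Serpina3m (4.89-fold) and Saa3 (17.6-fold). How far the r values in this paragraph rest on GRko/ko or on the difference between the runs was not tested, and they do not measure joint regulation. Among the genes most like Serpina3f were Psmc3ip (0.985), Gm14325 (0.984), Exosc9 (0.981) and D430020J02Rik (0.981), and Serpina3g was most like Gpn1 (0.961), Sardh (0.96), Clip4 (0.957), Igf1 (0.956) and Enox2 (0.955). Saa3 was most like Ogt (0.984), Tmem176a (0.984), Tmem176b (0.982), Cd9 (0.972) and Gpm6b (0.972).

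Other genes of the cluster and of the acute phase were taken from fixed lists. Of 20 further genes of serpin clusters, 3 were tested, and with Dex 0 changed in GRwt/wt of the first run, 2 rose in the second, and 1 rose each in GRD/D, GRL/L and GRD+L/D+L. Of 28 further acute-phase genes, 14 were tested, and 5 rose in GRwt/wt of the first run (median log2 fold change 0.64, against 0.00 over all genes). In the second run 5 rose and 2 fell, with a median of the opposite sign (−0.12). In GRL/L 6 rose and 1 fell, in GRD/D 3 rose, in GRD+L/D+L 1 rose and in GRko/ko 0 changed. Over all genes, 7.68% rose in GRwt/wt of the first run, 14.8% in the second and 8.74% in GRL/L. In either direction 11.8% of all genes changed in GRD/D, 5.02% in GRD+L/D+L and 0% in GRko/ko. Of this list, Saa1, Saa2, Crp and Hamp stayed at 0 to 7 counts in all libraries. Other genes of the list were detected, such as Hp (0 to 519 counts), Cp (34 to 1178), C3 (8 to 459) and Lbp (0 to 252).

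The metallothionein genes Mt1 and Mt2, which encode metal-binding proteins, and Il1rn, which encodes the antagonist of the IL-1 receptor, rose in both runs. Il1rn rose by 1.18 and 1.21 on the log2 scale in GRwt/wt (adjusted p = 3.2e-06 and 1.1e-12) and by 1.01 in GRL/L, and had 0.35 in GRD/D (adjusted p = 0.128) and 0.06 in GRD+L/D+L (adjusted p = 0.95). Mt2 rose by 3.25 and 4.29 in GRwt/wt, by 3.26 in GRL/L, by 0.62 in GRD/D and by 0.44 in GRD+L/D+L. Mt1 rose by 1.89 and 2.98 in GRwt/wt and by 2.03 in GRL/L, and by 0.30 in GRD/D (adjusted p = 0.00862). For Il1rn the difference to GRwt/wt was called in GRD/D (−0.83, adjusted p = 0.0378) and GRD+L/D+L (−1.11, adjusted p = 0.0066), and not in GRL/L (−0.20, adjusted p = 0.576). For Mt1 and Mt2 it was called in GRD/D (−1.59 and −2.63) and GRD+L/D+L (−1.70 and −2.81), and also in GRL/L (−0.95, adjusted p = 3.9e-07 and −1.03, adjusted p = 7.41e-06).

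Of 27 genes of acute-phase signalling, 26 were tested. With Dex 5 rose and 8 fell in GRwt/wt of the first run, 5 and 14 in the second, 4 and 14 in GRL/L, 3 and 7 in GRD/D, 1 and 5 in GRD+L/D+L, and 0 in GRko/ko. Over all genes, 6.16% fell in GRwt/wt of the first run, 16.7% in the second and 10.3% in GRL/L. The shares that rose were 7.68%, 14.8% and 8.74%. In either direction 11.8% of all genes changed in GRD/D and 5.02% in GRD+L/D+L. Il6, the main inducer of the liver response, fell in GRwt/wt (log2 fold changes −2.24 and −2.76), in GRL/L (−2.27), in GRD/D (−1.06) and in GRD+L/D+L (−0.88, adjusted p = 7.61e-06). Il11, a cytokine that uses the same signalling receptor, fell in GRwt/wt (−2.11 and −1.52), in GRL/L (−0.99), in GRD/D (−1.37) and in GRD+L/D+L (−1.12). The Il6 fall was weaker than in GRwt/wt in GRD/D (difference 1.18, adjusted p = 0.000726) and in GRD+L/D+L (1.37, adjusted p = 5.37e-05). Of 6 well-known GR targets, all rose in GRwt/wt of both runs and in GRL/L, 5 rose and 1 fell in GRD/D, 4 rose and 1 fell in GRD+L/D+L, and 0 changed in GRko/ko. Of 4 tested genes for Lcn2 uptake and handling, 1 rose and 1 fell in GRwt/wt of the second run, 1 fell in GRL/L and 1 rose in GRD+L/D+L. Of 4 tested target proteases of serpins, 1 rose and 1 fell in GRwt/wt of the second run, and 1 fell in GRL/L. Mmp9 is in both lists, and 0 of either list changed in GRwt/wt of the first run.

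Under vehicle, 8 of the 14 tested acute-phase genes were higher and 2 lower in GRko/ko, and 3 were higher and 2 lower in GRD+L/D+L. Over all genes the shares were 24.3% higher and 21.2% lower in GRko/ko, and 13.8% and 15.8% in GRD+L/D+L. Cd14, a receptor for bacterial lipopolysaccharide that is also typical of macrophages, was higher in GRko/ko (4.27, adjusted p = 9.92e-30) and lower in GRD+L/D+L (−1.15, adjusted p = 2.34e-05), as was the summed macrophage level given above. The ceruloplasmin gene Cp was higher in both GRko/ko (2.37, adjusted p = 5.85e-09) and GRD+L/D+L (1.05, adjusted p = 0.00882). In GRL/L 1 gene was higher and 3 were lower, among them the haptoglobin gene Hp (−2.22, adjusted p = 4.29e-15) and Lrg1 (−2.48, adjusted p = 0.000111). In GRD/D 2 were higher and 1 lower. Over all genes, 11.3% differed in GRL/L and 9.37% in GRD/D, in either direction. Of the 26 signalling genes, 10 were higher and 7 lower in GRko/ko, and 4 higher and 11 lower in GRD+L/D+L. The cytokine gene Lif was higher in both (2.07 in GRko/ko, 1.09 in GRD+L/D+L), and Il1r1, which encodes the IL-1 receptor, was lower in GRD+L/D+L (−1.20, adjusted p = 5.68e-11).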

How the data were processed

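The table of raw read counts deposited for the MEF libraries holds whole numbers without normalization. Levels were expressed as CPM, the count relative to the scaled library size. To make these counts, the authors mapped the reads of TruSeq libraries to mm10 with HISAT2 2.1.0, kept uniquely mapped reads and counted them with featureCounts 2.0.0 (versions from the submitters' processing notes). The annotation release, the strand setting and the read length are not given in the sources used here. Reads that map to several places are lost, which lowers the counts of near-identical genes.

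The 9 genes, the gene lists and the tests were chosen with earlier results of these data known. Libraries were grouped by the labels into 12 groups of 3. edgeR 4.0.16 (limma 3.58.1, R 4.3.3) was used with TMM scaling, filterByExpr, 1 term per group over all 36 libraries and robust quasi-likelihood F tests. Adjusted p-values are Benjamini-Hochberg over the 15489 tested genes, which hold 99.93% of all counts. A gene was called at an adjusted p of at most 0.05. P-values measure the spread between the libraries of a group, which the study describes as cultures from different mice. Whether that spread is one between mice was not tested. Standard errors are approximate, derived from the F statistic. The script was tested on simulated data. Named were the 9 genes, list genes that passed this threshold and an absolute log2 fold change of 1 in GRwt/wt of both runs, list genes among the 3 smallest adjusted p of a vehicle comparison, and the 5 genes most like each member with a mean count of at least 50; not every gene under the rule is named. S100a8, S100a9, Serpina3e-ps and the acute-phase genes given by their counts alone were named after their values were seen. Alternatives were DESeq2 1.42.0, other size factors, no filter, a run term, separate runs, a replicate block, a fold threshold, left-out libraries and, added after seeing the data, a fit without GRko/ko. Sequences were aligned with mafft 7.526. Replicate numbers were not used to pair libraries in the main fit. A further experiment at a lower Dex dose was not used here.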

Additional observations from a re-analysis of the deposited data

Results flagged for a closer look

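Serpina3n was singled out because its response to Dex differed between GRD+L/D+L and GRwt/wt of the same run in a test of the difference itself (−0.82 on the log2 scale, adjusted p = 0.0334 by edgeR). Serpina3f was singled out because its response differed between GRwt/wt of the 2 runs, by −1.01 (adjusted p = 0.0179). Both calls were lost in some fits that left out 1 library.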

How the results depend on the processing

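The 8 tested members gave 136 values over 17 comparisons, of which 30 were called. Among 1981 values under the alternatives, 0 of the called values reversed, 47 lost their call and 64 gained it. The vehicle calls in GRD+L/D+L and GRko/ko held under each alternative. The calls for Serpina3n, Serpina3m and Serpina3g with Dex in the second run and for Serpina3n in GRwt/wt of the first run held under each alternative other than the added fold threshold, which among them kept Serpina3g and Serpina3m in GRwt/wt.

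The number of members called with Dex moved by more than 1.5 times as follows. With the added fold threshold it was 1 in GRwt/wt of the first run, 2 in the second, 1 in GRL/L and 0 in GRD/D and GRD+L/D+L, and 0 for the difference in GRD+L/D+L. With DESeq2 it was 1 in GRD/D, 0 in GRD+L/D+L and 1 in GRko/ko, 3 for the difference in GRko/ko, and under vehicle 1 in GRD/D and 5 in GRD+L/D+L. Without the filter it was 1 in GRD+L/D+L, 0 for the difference there, 1 for that in GRko/ko and 4 for vehicle-treated GRL/L. With the run term it was 3 in GRwt/wt of the second run, 0 in GRD+L/D+L, and 4 for the difference in each of GRD/D, GRD+L/D+L and GRko/ko. With each run on its own it was 0 in GRD+L/D+L, 0 for the difference there, and under vehicle 5 in GRD+L/D+L and 2 in GRL/L. Without GRko/ko libraries it was 2 for the difference in GRD/D, 3 in GRD+L/D+L and 3 between the runs, and under vehicle 2 in GRD/D and 1 in GRL/L. With the replicate block it was 1 for Dex in GRD+L/D+L and 1 for the difference in each of GRD/D and GRko/ko, both Serpina3i (0.51, adjusted p = 0.0336 and 1.78, adjusted p = 0.00974), and the block ended the Serpina3f difference between the runs (−0.99, adjusted p = 0.0791). Replicates of the same number correlated by −0.161 to 0.236, above 0.1 in 3 of 18 pairs. Those of unlike number correlated by −0.191 to 0.192, so the check cannot decide which libraries shared a culture. The cause of these changes was not tested.

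With each library left out in turn, the members called with Dex ranged from 1 to 2 in GRwt/wt of the first run, 4 to 5 in the second, 2 to 2 in GRD/D, 3 to 4 in GRL/L, 0 to 1 in GRD+L/D+L and 0 to 0 in GRko/ko. The differences ranged from 0 to 1 in GRD/D, 0 to 2 in GRD+L/D+L, 0 to 2 in GRko/ko, 0 to 0 in GRL/L, 0 to 0 between GRD+L/D+L and GRD/D and 0 to 1 between the runs. Under vehicle they ranged from 0 to 0 in GRD/D, 3 to 4 in GRD+L/D+L, 4 to 5 in GRko/ko, 0 to 3 in GRL/L and 6 to 6 between the runs. Orm1 had at most 10 counts in a library, and Lcn2 at most 37.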
